A study of Mus musculus with 2 samples.

Results

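The report concerns 8 genes that govern where lymphocytes go and whether they stay: the transcription factor Klf2, the sphingosine 1-phosphate receptors S1pr1 and S1pr5, the chemokine receptor Ccr7, the oxysterol receptor Gpr183, the activation antigen Cd69 and the integrin chains Itga1 and Itgae. They were 8 of 32285 genes in the count matrices, each matched by its symbol. The genes were chosen from earlier results of the same data, in which Klf2 and Itga1 in natural killer (NK) cells and Gpr183 in CD8 T cells had differed between diets. Differences between diets are therefore descriptions, and none is a test. The samples were leukocytes from MC38 tumors, a colon adenocarcinoma line of mouse origin that was injected subcutaneously into C57BL/6J females aged 6 to 8 weeks. One library came from mice fed a ketogenic diet from day 4, and the other from mice kept on a normal diet. Tumors of 5 mice per diet were pooled at day 14, and live CD45+ cells were enriched from each pool with magnetic beads. With 1 library per diet the variation between mice is unknown, and diet, library and pool of animals cannot be told apart.

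Lymphocytes leave tissues and lymph nodes along gradients of sphingosine 1-phosphate, which S1PR1 and, mainly on NK cells, S1PR5 sense. KLF2 drives transcription of S1pr1 in T cells and is lost on strong activation. CD69 binds S1PR1 and draws it off the cell surface, so that activated and resident lymphocytes are held in place. CCR7 guides cells to lymph nodes, and GPR183 (EBI2) follows oxysterols within lymphoid tissue. Integrin alpha 1 (CD49a) binds collagen IV and, with the alpha E chain (CD103), which binds E-cadherin, marks tissue-resident NK and T cells. Itga1 on NK-lineage cells is also a mark of type 1 innate lymphoid cells.

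The measure was the unique molecular identifier (UMI), a tag that counts each captured RNA molecule once. A level is the sum of a gene's UMIs over the cells of a subset per 1000000 UMIs of that subset (CPM), and its bracketed range is an exact Poisson interval at 95%. Differences between diets are log2 ratios of these levels, ketogenic over normal, with an exact interval. All intervals cover counting error only. The ketogenic library kept 5944 barcodes with at least 500 UMIs and 300 genes and the normal library 5671, with medians of 3922 and 4200 UMIs. Barcodes with myeloid, B cell, mature dendritic or tumor RNA above fixed limits were set aside, 44.4% in the ketogenic and 60.3% in the normal library. Marker genes then gated 2700 NK and T cells in the ketogenic and 1700 in the normal library. Among the kept barcodes 7 sequences occurred in both libraries, and 4 of the cells that carried them, counted over both libraries, were gated NK or T cells.

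NK cells numbered 1661 in the ketogenic and 976 in the normal library. They were divided by cycling genes and by their leading granzyme transcript. Gzma-led NK cells numbered 733 in the ketogenic and 356 in the normal library, Gzmc-led NK cells 644 and 404, and cycling NK cells 243 and 181. The Gzma-led cells were shallow, with medians of 1978 UMIs in the ketogenic and 2204.5 in the normal library, against 5283 and 5678.5 in Gzmc-led cells. All 7 NK markers were detected in both libraries, at a summed 2189 CPM in ketogenic and 2034 CPM in normal NK cells. T cells held 547 CD8, 28 CD4, 43 regulatory, 60 Il17-type gamma-delta, 73 other gamma-delta and 288 double-negative (CD4-, CD8-) cells in the ketogenic library. The normal library held 442, 24, 35, 2, 65 and 156 of the same subsets. The double-negative gate still carried NK marker RNA, at 1306 CPM in the ketogenic and 1197 CPM in the normal library. It carried less T cell marker RNA than the CD8 gate, with 2964 against 4613 CPM in the ketogenic and 2688 against 4710 CPM in the normal library. Neutrophil marker RNA in the gate reached 1173 CPM in the ketogenic and 388 CPM in the normal library. Other gamma-delta T cells carried NK marker RNA too, at 1265 CPM in the ketogenic and 910 CPM in the normal library. The part of other cells in the values of both gates was not tested.

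Klf2 was concentrated in Gzma-led NK cells in both libraries. In the ketogenic library it reached 568 CPM (533 to 604) there, against 79.1 CPM in Gzmc-led and 71.8 CPM in cycling NK cells. In the normal library the values were 360 CPM (322 to 400) in Gzma-led, 53.5 CPM in Gzmc-led and 50.5 CPM in cycling NK cells. The Gzma-led over Gzmc-led ratio was 7.18-fold (6.30 to 8.20) in the ketogenic and 6.72-fold (5.49 to 8.26) in the normal library. The ratio was smaller between cells of like depth from 2000 to 8000 UMIs per cell. Between 2000 and 4000 UMIs per cell it was 3.36-fold (2.59 to 4.41) in the ketogenic and 1.88-fold (1.25 to 2.90) in the normal library. It was 2.78-fold and 2.89-fold between 4000 and 8000 UMIs. Between 1000 and 2000 UMIs it was 5.02-fold in the ketogenic and 8.02-fold (2.70 to 39.3) in the normal library. The Gzmc-led cells of that bin held 10 and 3 Klf2 UMIs, and each interval included the ratio over all depths. The intervals of the Gzmc-led and cycling cells overlapped in both libraries.

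**Figure D1:**
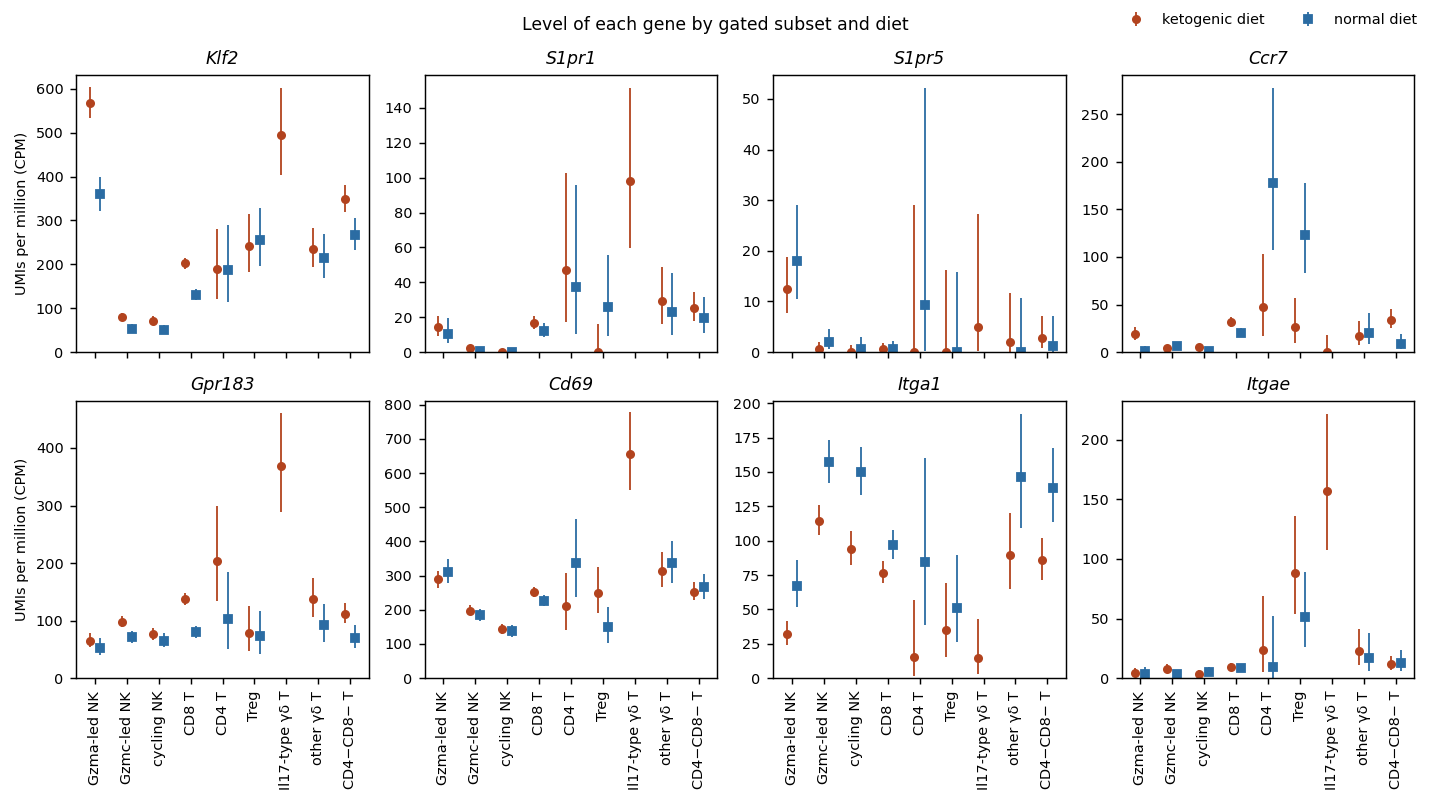
Level of the 8 genes (CPM) in 9 gated subsets, ketogenic diet (circles) left of normal diet (squares), with exact Poisson intervals for counting error. Klf2 is highest in Gzma-led NK cells under both diets, Itga1 is lowest there among the 3 NK subsets, and Il17-type gamma-delta T cells are drawn for the ketogenic library only, since the normal library held 2.

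Among T cells, Klf2 ranged less widely. In the ketogenic library Il17-type gamma-delta T cells reached 495 CPM (404 to 602), which overlapped the Gzma-led NK cells, and double-negative cells 349 CPM. Regulatory, other gamma-delta, CD8 and CD4 T cells followed at 241, 235, 202 and 189 CPM, with overlapping intervals between neighbours. In the normal library the order was double-negative at 267, regulatory at 256, other gamma-delta at 215, CD4 at 187 and CD8 at 131 CPM, again with overlap between neighbours.

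Klf2 was higher in the ketogenic library in 7 of the 8 subsets that held at least 20 cells in both libraries. In all NK cells it stood at 186 CPM in the ketogenic and 105 CPM in the normal library, a log2 ratio of 0.83 (0.69 to 0.97). Within NK subsets the log2 ratio was 0.66 in Gzma-led, 0.56 in Gzmc-led and 0.51 in cycling cells. Neutrophil marker RNA in Gzma-led cells differed too, at 376 CPM in the ketogenic and 19.1 CPM in the normal library, with 526 of the 664 ketogenic UMIs in 5 cells. Without the barcodes that held any, a step added after seeing the data, the Gzma-led log2 ratio of Klf2 was 0.62. The median mitochondrial share of Gzma-led cells was 1.45% in the ketogenic and 2.37% in the normal library, and its part was not tested. Composition moved with it: Gzma-led cells made up 44.1% of ketogenic and 36.5% of normal NK cells. At equal weights of the 4 NK subsets the log2 ratio was 0.67. These included cells led by granzymes D, E or G, 13 in the ketogenic and 16 in the normal library, with 6 and 3 Klf2 UMIs. In CD8 T cells Klf2 reached 202 CPM in the ketogenic and 131 CPM in the normal library, a log2 ratio of 0.63 (0.46 to 0.80). Regulatory T cells gave the lowest value, 241 CPM in the ketogenic and 256 CPM in the normal library, and CD4 T cells hardly differed, at 189 and 187 CPM. In double-negative cells the log2 ratio of 0.39 dropped to 0.05 among barcodes of at most 10000 UMIs and to -0.15 after thinning to 1000 UMIs per cell.

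The same direction was present outside lymphocytes. C1q macrophages held 148 CPM of Klf2 in the ketogenic and 105 CPM in the normal library, a log2 ratio of 0.49 (0.24 to 0.74). Barcodes of at most 100 UMIs, which mostly hold free RNA, gave 232 CPM in the ketogenic and 166 CPM in the normal library, also a log2 ratio of 0.49. The difference was larger in mature dendritic and tumor-type cells, classes added after seeing the data. Mature dendritic cells, 54 and 47, held 309 and 79.2 CPM, a log2 ratio of 1.96 (1.42 to 2.55). Tumor-type cells, 12 in each library, held 597 and 145 CPM, a log2 ratio of 2.04 (1.11 to 3.14). The mature dendritic class had no limit on tumor RNA. Its tumor markers summed to 1510 CPM in the ketogenic and 1237 CPM in the normal library, against 1346 and 1450 CPM in tumor-type cells. Tumor-type cells differed in depth, with medians of 13032.5 UMIs in the ketogenic and 4393 in the normal library. The part of tumor RNA and of depth in these 2 ratios was not tested. Free RNA was estimated from C1q transcripts at 5.35% of ketogenic and 3.09% of normal NK UMIs, and its subtraction left the NK log2 ratio at 0.83. Of cells that also express Klf2, endothelium has 4 markers in the list, which summed to 61.2 CPM in ketogenic and 97.1 CPM in normal NK cells. Most of that was Pecam1, at 57.9 and 91.6 CPM, while Kdr stood at 1.23 and 3.76 CPM and Cdh5 at 0.613 and 0.537 CPM. The part of other cells and of a difference shared by the whole library in the lymphocyte values was not tested.

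Klf2 depended strongly on the depth of the cell. In Gzma-led NK cells it was lower in each deeper bin of UMIs per cell, for the 4 bins with at least 20 cells in both libraries. From shallow to deep, the ketogenic values were 1318, 1015, 461 and 202 CPM and the normal values 1662, 764, 254 and 166 CPM. The ketogenic library was lower in the shallowest bin and higher in the 3 others, and the intervals overlapped in the shallowest and in the deepest of the 4. Over all NK cells the log2 ratio was -0.29 between 500 and 1000 UMIs and 0.92 at 8000 UMIs and above. It did not rise steadily between them, at 0.47, 0.70 and then 0.27 between 4000 and 8000 UMIs. The intervals of the shallowest bin (-0.95 to 0.40) and of the bin from 4000 to 8000 UMIs (-0.03 to 0.58) included 0. After thinning to 1000 UMIs, 20.7% of ketogenic NK cells held a Klf2 UMI (18.8 to 22.8) against 13.3% of normal NK cells (11.2 to 15.6). Unthinned, the shares were 38.5% and 31.1%, at median depths of 3746 and 4594.5 UMIs. In C1q macrophages 9.86% of ketogenic and 7.13% of normal cells held one after thinning, at unthinned medians of 4039 and 4332.5 UMIs. The share over all NK cells thus lay above that class in both libraries. It was carried by Gzma-led cells, of which 37.2% in the ketogenic and 26.8% in the normal library held a Klf2 UMI after thinning. Gzmc-led cells, at 7.99% and 6.27%, and cycling cells, at 8.30% and 3.31%, were not above C1q macrophages, so their Klf2 levels and diet ratios rest on shares no higher than in that class.

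**Figure D2:**
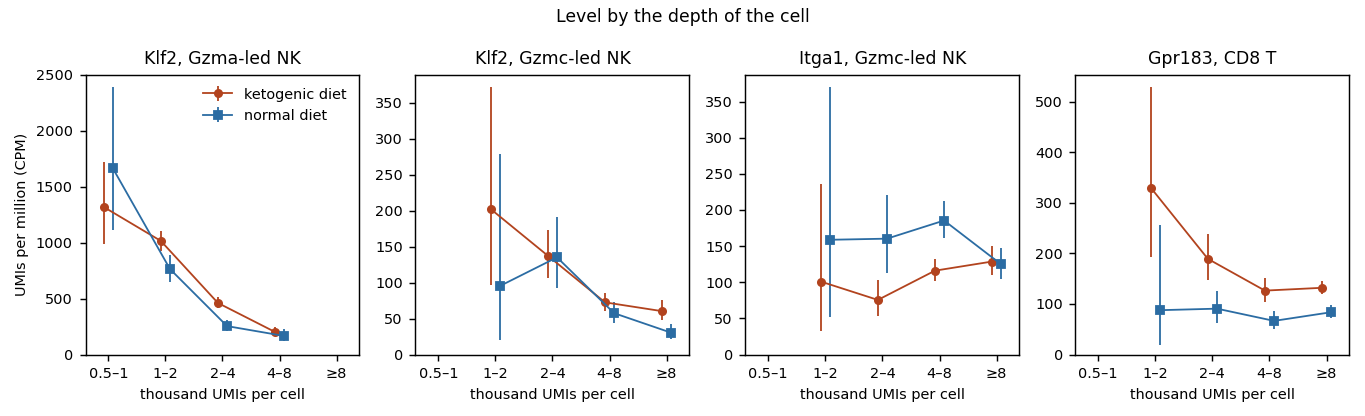
Level in CPM by UMIs per cell, ketogenic diet (circles) and normal diet (squares), for bins with at least 20 cells, with exact Poisson intervals. Klf2 declines with depth in Gzma-led NK cells under both diets, while Gpr183 in CD8 T cells is higher in the ketogenic library in each bin drawn.

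The window of 250 bases before the RefSeq start of Klf2 is shown because the gene led the subset pattern, beside those of S1pr5, which shared its concentration in Gzma-led NK cells, and Itga1, which ran opposite to it. On GRCm38, by GENCODE, the genes are at chr8:72319033-72321656 (Klf2, plus strand), chr9:21242912-21248443 (S1pr5, minus strand) and chr13:114953096-115101964 (Itga1, minus strand), and all are protein-coding. RefSeq on GRCm38.p6 gave a window for 4 of the 8 genes, the other one being Gpr183. The Klf2 window lies at chr8:72318812-72319061 on the plus strand, that of S1pr5 at chr9:21248444-21248693 on the minus strand and that of Itga1 at chr13:115101965-115102214 on the minus strand. Capitals mark CACCC, the core letters bound by Kruppel-like factors, or its reverse complement, and in Klf2 also TAAATTTA, a MEF2-type sequence.
Klf2: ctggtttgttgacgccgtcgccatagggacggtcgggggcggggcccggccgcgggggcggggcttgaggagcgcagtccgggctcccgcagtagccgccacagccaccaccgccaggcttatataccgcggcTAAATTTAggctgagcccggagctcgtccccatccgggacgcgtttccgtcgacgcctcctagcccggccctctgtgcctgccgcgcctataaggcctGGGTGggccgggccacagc
S1pr5: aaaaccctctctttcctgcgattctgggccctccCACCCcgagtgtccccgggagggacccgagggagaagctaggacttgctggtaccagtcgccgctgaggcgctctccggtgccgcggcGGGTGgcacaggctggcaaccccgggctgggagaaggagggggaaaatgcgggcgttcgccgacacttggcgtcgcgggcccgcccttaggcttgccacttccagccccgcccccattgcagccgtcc
Itga1: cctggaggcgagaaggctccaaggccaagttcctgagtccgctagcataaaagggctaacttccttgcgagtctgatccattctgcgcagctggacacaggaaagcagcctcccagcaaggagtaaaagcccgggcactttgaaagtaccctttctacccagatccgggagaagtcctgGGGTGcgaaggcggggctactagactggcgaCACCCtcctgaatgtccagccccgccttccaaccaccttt
CACCC was found once in Klf2, 19 bases before the RefSeq start, at 216 and 128 bases in S1pr5 and at 71 and 40 bases in Itga1, counting both strands. The same letters occur in 52.0% of 32851 mouse promoter windows of this length, so their presence separates none of these genes from others. TAAATTTA stood 117 bases before the RefSeq start of Klf2 and occurs in 0.502% of the windows. GENCODE starts Klf2 inside the printed window, so the CACCC match lies within its gene model and the TAAATTTA match before it. The motifs did not overlap, and a match is a description of the letters, not of a bound site.

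S1pr1, the main egress receptor, was sparse in NK cells. They held 34 UMIs in the ketogenic and 12 in the normal library, or 4.17 and 2.15 CPM. Gzma-led cells carried 25 of the 34 and 10 of the 12, and cycling NK cells held none in either library, where a count of 0, taken as up to 3 UMIs, allows up to 1.21 CPM in the ketogenic and 1.59 CPM in the normal library. In CD8 T cells S1pr1 was 4.01-fold (2.65 to 6.18) the NK level in the ketogenic and 5.59-fold (2.87 to 11.7) in the normal library. CD8 T cells held 16.7 CPM in the ketogenic and 12.0 CPM in the normal library, and the interval of the log2 ratio of 0.47 ran from -0.10 to 1.07. The highest level was in Il17-type gamma-delta T cells of the ketogenic library, at 98.1 CPM from 20 UMIs.

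S1pr5, the NK-biased receptor, lay mostly in Gzma-led cells among NK subsets. Of its UMIs in NK cells, 22 of 26 in the ketogenic and 17 of 24 in the normal library lay there, against 2 and 5 in Gzmc-led cells. The Gzma-led level was 12.5 CPM in the ketogenic and 18.1 CPM in the normal library, and the log2 ratio of -0.54 had an interval from -1.52 to 0.47. CD8 T cells held 3 and 2 UMIs. Within ketogenic NK cells thinned to 1000 UMIs, S1pr5 was found in 2.70% of cells with a Klf2 UMI and in 0.236% of cells without one, and the intervals (1.24 to 5.07 and 0.0486 to 0.687) did not overlap. In normal NK cells the shares were 1.59% and 0.728%, with overlapping intervals. Within Gzma-led cells the intervals overlapped in both libraries. The S1pr5 counts behind these shares were 9 and 3 cells in the ketogenic and 2 and 6 in the normal library.

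Ordering the non-cycling NK cells by the Gzma share of their Gzma and Gzmc UMIs, bins that were chosen after seeing the data, gave a graded pattern. From 0 to 10%, 10 to 50%, 50 to 90% and 90 to 100% Gzma, Klf2 stood at 59.8, 109, 309 and 674 CPM in the ketogenic library. In the normal library it stood at 40.9, 66.0, 122 and 534 CPM. Itga1 ran the other way, at 122, 104, 59.7 and 20.9 CPM in the ketogenic and 167, 149, 106 and 30.8 CPM in the normal library. Each Klf2 value was higher, and each Itga1 value lower, in the ketogenic library of the same bin. The intervals of the libraries overlapped for Klf2 from 0 to 10% and for Itga1 from 50 to 90% and from 90 to 100%. Depth fell along the same axis, with medians of 5529 UMIs in the lowest and 1870 in the highest bin of the ketogenic library, and 6347 and 1852.5 in the normal library. The part of depth in the pattern was not tested beyond the depth bins given above.

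**Figure D3:**
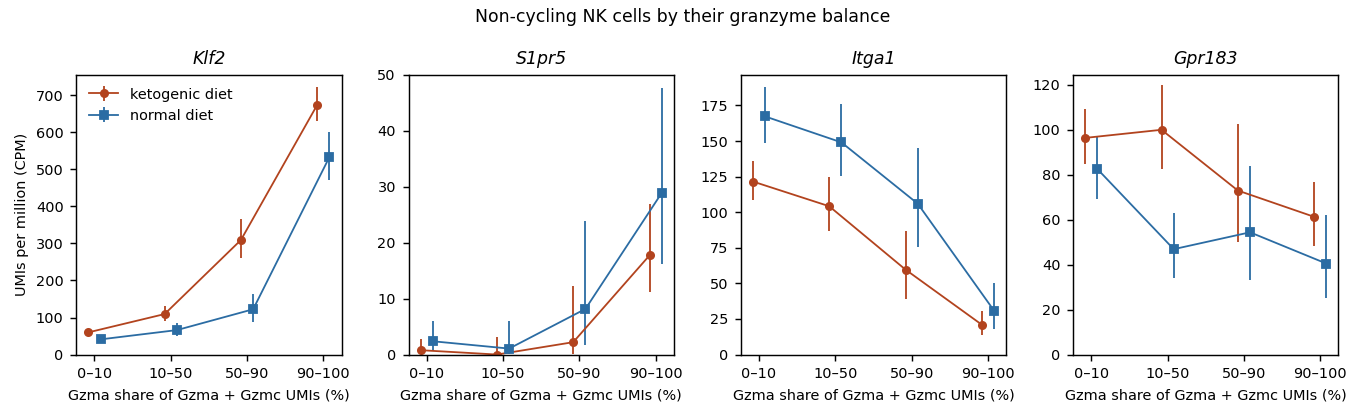
Level (CPM) of Klf2, S1pr5, Itga1 and Gpr183 in non-cycling NK cells binned by the Gzma share of Gzma and Gzmc UMIs, ketogenic diet (circles) and normal diet (squares), with exact Poisson intervals. Klf2 climbs to 674 and 534 CPM in the ketogenic and normal libraries while Itga1 drops to 20.9 and 30.8 CPM.

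Itga1, the collagen-binding chain, ran opposite to Klf2 among NK subsets, and its summed level was lower in the ketogenic library in each of them. Gzmc-led NK cells held 115 CPM (104 to 126) in the ketogenic and 157 CPM (142 to 174) in the normal library. Cycling NK cells held 94.0 and 149.9 CPM, and Gzma-led NK cells 32.3 and 67.0 CPM. The Gzma-led level was 0.282 of the Gzmc-led level (0.210 to 0.372) in the ketogenic and 0.426 (0.321 to 0.557) in the normal library. Between cells of 1000 to 2000 UMIs this ratio was 0.219 in the ketogenic and 0.469 (0.164 to 1.64) in the normal library. From 2000 to 4000 UMIs it was 0.629 (0.387 to 1.02) and 0.356, and from 4000 to 8000 UMIs 0.182 and 0.417. Over all NK cells Itga1 was 89.4 CPM in the ketogenic and 139 CPM in the normal library, a log2 ratio of -0.64 (-0.79 to -0.49). The log2 ratio was -1.05 in Gzma-led, -0.46 in Gzmc-led and -0.67 in cycling NK cells, so the direction was the same in each. The Gzma-led value rested on 57 UMIs in the ketogenic and 63 in the normal library. It was -1.75 between 1000 and 2000 UMIs per cell, -0.26 (-1.07 to 0.57) between 2000 and 4000 and -1.87 between 4000 and 8000. In Gzmc-led cells of 8000 UMIs and above the libraries hardly differed, at 129 and 125 CPM. Within ketogenic NK cells thinned to 1000 UMIs, 3.90% of cells with a Klf2 UMI and 8.01% of cells without one also held Itga1. In normal NK cells the shares were 5.56% and 12.3%. The intervals overlapped in both libraries, narrowly in the ketogenic one (2.09 to 6.583 and 6.580 to 9.64). Within Gzma-led cells the shares were 1.96% and 3.94% in the ketogenic and 1.11% and 5.69% in the normal library, with overlapping intervals. Within Gzmc-led cells they were 11.8% (4.44 to 23.9) and 10.7% in the ketogenic and 24.0% (9.36 to 45.1) and 15.2% in the normal library, from 6 of 51 and 6 of 25 cells with a Klf2 UMI, and also overlapped.

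Outside NK cells Itga1 was also lower in the ketogenic library in each of the 4 other subsets with at least 20 UMIs. Double-negative cells held 85.6 CPM in the ketogenic and 139 CPM in the normal library, and other gamma-delta T cells 89.3 and 146 CPM. CD8 T cells differed less, at 76.9 and 96.8 CPM, a log2 ratio of -0.33 (-0.56 to -0.11). The log2 ratio in CD8 T cells was -0.08 after thinning to 1000 UMIs, and between 2000 and 4000 UMIs per cell it was 0.17. Free RNA held 33.9 CPM in the ketogenic and 37.5 CPM in the normal library, a log2 ratio of -0.15 whose interval ran from -0.63 to 0.35. C1q macrophages held 9.48 and 6.68 CPM. In NK cells the log2 ratio stayed below 0 in each of the 5 depth bins, between -1.56 and -0.50. After thinning to 1000 UMIs, 7.16% of ketogenic (5.95 to 8.53) and 11.4% of normal NK cells (9.42 to 13.6) held an Itga1 UMI, against 1.06% and 0.728% of C1q macrophages. The unthinned shares were 25.3% and 38.1% of NK cells and 2.99% and 2.82% of C1q macrophages.

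Itgae, the CD103 chain, was low in NK cells, at 5.64 CPM in the ketogenic and 3.76 CPM in the normal library, from 46 and 21 UMIs. CD8 T cells held 9.63 and 8.32 CPM. Regulatory T cells held 87.8 CPM in the ketogenic and 51.1 CPM in the normal library, 9.11-fold (5.10 to 15.7) and 6.14-fold (2.84 to 12.5) the CD8 level of the same library. These rest on 20 and 12 UMIs in 43 and 35 cells, and their intervals overlapped those of other small T cell subsets, including the Il17-type gamma-delta T cells at 157 CPM in the ketogenic library. In Gzmc-led NK cells Itgae had 30 UMIs in the ketogenic and 8 in the normal library, a log2 ratio of 1.36 (0.20 to 2.70) at levels of 8.07 and 3.15 CPM.

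Cd69, the retention antigen, differed little between diets in the larger subsets. NK cells held 204 CPM in the ketogenic and 188 CPM in the normal library, a log2 ratio of 0.12 (0.00 to 0.23). CD8 T cells held 251 and 226 CPM, a log2 ratio of 0.15 (0.02 to 0.29). Gzma-led NK cells held 289 and 312 CPM and were 1.46-fold (1.30 to 1.64) the Gzmc-led level in the ketogenic and 1.69-fold (1.46 to 1.96) in the normal library. Cd69 and Klf2 RNA were thus both higher in Gzma-led than in Gzmc-led cells. In ketogenic NK cells thinned to 1000 UMIs, 25.2% of those with a Klf2 UMI (20.6 to 30.2) and 17.4% of those without (15.4 to 19.6) held Cd69. The normal library gave 26.2% (18.8 to 34.8) and 16.6% (14.1 to 19.3), where the intervals overlapped. Within Gzma-led cells the shares were 25.1% and 19.5% in the ketogenic and 26.7% and 23.6% in the normal library, with overlapping intervals in both. In CD8 T cells they were 23.2% and 21.3% in the ketogenic and 12.5% and 20.1% in the normal library. Regulatory T cells held 57 UMIs in the ketogenic and 35 in the normal library, a log2 ratio of 0.75 (0.11 to 1.40).

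Gpr183, the oxysterol receptor, was higher in the ketogenic library in all 8 subsets compared, with log2 ratios from 0.12 in regulatory to 0.99 in CD4 T cells. The intervals included 0 in Gzma-led and cycling NK cells and in CD4, regulatory and other gamma-delta T cells. The CD4 value (-0.08 to 2.15) came from 26 UMIs in the ketogenic and 11 in the normal library. CD8 T cells held 138 CPM (127 to 149) in the ketogenic and 79.8 CPM (70.4 to 90.2) in the normal library, a log2 ratio of 0.79 (0.58 to 0.9995). The 2 intervals did not overlap. In the 4 depth bins with at least 20 CD8 T cells in both libraries the log2 ratio lay between 0.66 and 1.91. After thinning, 10.7% of ketogenic (8.23 to 13.6) and 5.03% of normal CD8 T cells (3.18 to 7.52) held a Gpr183 UMI. C1q macrophages gave 5.28% in the ketogenic and 4.51% in the normal library, and the interval of the normal CD8 share included 4.51%. The unthinned CD8 shares were 49.5% and 31.9%, at medians of 5855 and 5530 UMIs, against 17.6% and 17.8% of C1q macrophages. NK cells differed less, with 85.2 CPM in the ketogenic and 67.4 CPM in the normal library, a log2 ratio of 0.34 (0.16 to 0.52). Free RNA gave 80.8 and 59.6 CPM, a log2 ratio of 0.44 (0.09 to 0.80), and was estimated at 16.6% of ketogenic and 7.29% of normal CD8 UMIs. C1q macrophages held 51.1 and 50.1 CPM. Macrophage marker RNA in CD8 T cells summed to 269 CPM in the ketogenic and 429 CPM in the normal library, and neutrophil marker RNA to 478 and 213 CPM. Without the barcodes that held a neutrophil marker UMI, the CD8 log2 ratio was 0.84 for Gpr183 and 0.53 for Klf2. Subtraction of the free RNA profile left the CD8 log2 ratio at 0.87.

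Ccr7 had few UMIs and rested on few cells. CD8 T cells held 146 UMIs in 62 cells of the ketogenic and 65 in 39 cells of the normal library, at 31.3 and 20.04 CPM and a log2 ratio of 0.64 (0.21 to 1.09). Gzma-led NK cells held 33 UMIs in 15 ketogenic cells, of which 10 were in 1 cell, against 1 UMI in the normal library. With the mixed barcodes kept, the log2 ratio there was -0.39 instead of 4.13. In double-negative cells the ketogenic library had 49 UMIs, 15 of them in 1 cell, and the normal library 7. CD4 and regulatory T cells ran the other way, with 6 and 6 UMIs in the ketogenic against 19 and 29 in the normal library, where 14 of the 29 came from 1 cell. Mature dendritic cells express the gene strongly, and free RNA held 58.1 CPM of it in the ketogenic and 33.8 CPM in the normal library. Of all Ccr7 UMIs of the kept barcodes, 14.1% in the ketogenic and 9.15% in the normal library lay in gated NK and T cells. The other markers of mature dendritic cells summed to 4.28 CPM in ketogenic and 5.24 CPM in normal CD8 T cells.

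Il17-type gamma-delta T cells, 60 cells in the ketogenic library, carried the highest levels of 4 of the 8 genes there among named subsets. They held 657 CPM of Cd69, 368 CPM of Gpr183, 157 CPM of Itgae and 98.1 CPM of S1pr1. For Cd69 the interval overlapped that of the 28 NK cells without a leading granzyme, at 561 CPM (399 to 767). It lay clear of the subset after these, the other gamma-delta T cells at 314 CPM. For the other 3 genes it overlapped that of the next subset. Set against the other gamma-delta T cells of the same library, Itgae was 6.87-fold (3.38 to 15.1), S1pr1 3.37-fold (1.62 to 7.22), Gpr183 2.68-fold (1.90 to 3.80), Klf2 2.11-fold (1.60 to 2.79) and Cd69 2.10-fold (1.65 to 2.66). Itga1 went the other way, at 14.7 against 89.3 CPM, or 0.165 (0.0327 to 0.515). The other gamma-delta gate of the ketogenic library carried NK marker RNA at 1265 CPM, against 388 CPM in the Il17-type cells. Its neutrophil marker RNA summed to 982 against 584 CPM, and its gamma-delta marker RNA to 710 against 3135 CPM. The part of other cells in these ratios was not tested. The normal library held 2 Il17-type gamma-delta T cells, so no diet comparison was possible.

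**Figure D4:**
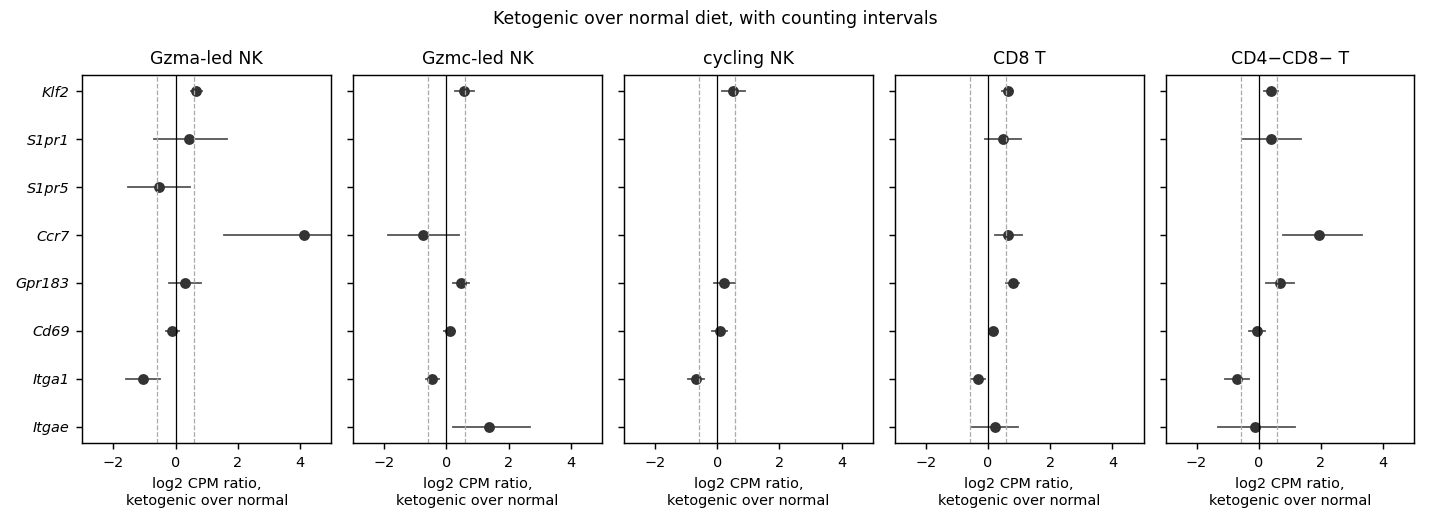
Log2 ratio of levels, ketogenic over normal diet, for each gene with at least 20 UMIs in both libraries together, in 5 subsets, with exact intervals for counting error. Solid line, no difference; dashed lines, 1.5-fold; Klf2 lies right of 0 and Itga1 left of 0 in each panel, and the Ccr7 interval in Gzma-led NK cells runs past the right edge.

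To read these differences against all genes, a gene was counted when its log2(CPM + 10) differed by at least 1.5-fold and it had at least 20 UMIs over both libraries. In NK cells 1 of 8 genes was higher (Klf2) and 1 lower (Itga1) in the ketogenic library, against 0.198% higher and 0.736% lower of 10601 genes. Itga1 in NK cells lay just inside this limit at -0.59, as did Klf2 in CD8 T cells at 0.59 and Gpr183 in double-negative cells at 0.60. Klf2 in Gzmc-led cells lay outside it at 0.49. In Gzma-led NK cells 2 of 7 were higher (Klf2 and Ccr7) and 1 lower (Itga1), against 1.78% and 5.57% of all genes measured. In Gzmc-led NK cells none of 6 passed, against 0.269% higher and 1.28% lower. In cycling NK cells 1 of 4 was lower (Itga1), against 0.747% higher and 2.35% lower. In CD8 T cells 2 of 7 were higher (Klf2 and Gpr183), against 0.418% higher and 0.894% lower. In double-negative cells 2 of 7 were higher (Ccr7 and Gpr183) and 1 lower (Itga1), against 2.17% higher and 6.5% lower. The genes were chosen on these values in NK and CD8 T cells, so nothing is read from those counts.

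Other trafficking genes did not move as a block in NK cells. Of 14 genes of lymph node homing and circulation, 1 was lower past 1.5-fold, Ly6c2, at 281 CPM in the ketogenic and 432 CPM in the normal library, and none was higher. Their median log2 ratio was -0.06, as it was over all genes. None of 16 residency genes passed, none of 6 chemokine receptors and none of 8 genes of sphingosine 1-phosphate handling.

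In Gzma-led NK cells 5 of 13 homing genes were lower and none higher in the ketogenic library, against 5.57% lower and 1.78% higher over all genes measured there. They included Ly6c2 at 247 against 457 CPM, the transcription factor Foxo1 at 34.5 against 58.5 CPM and the receptor S1pr4 at 26.6 against 52.1 CPM. The 2 others, Klrg1 and Il7r, are named after their values were seen. Foxo1 acts upstream of Klf2 in T cells, and its part in the Klf2 difference was not tested. Of 14 residency genes 1 was higher, the chemokine Xcl1 at 2149 against 1324 CPM, and 1 lower, Dusp6. In CD8 T cells none of 14 homing and none of 16 residency genes passed, and among 6 chemokine receptors Cxcr4, which binds CXCL12, was higher at 55.9 against 29.6 CPM.

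Of 16 immediate early and dissociation genes, 1 was higher and none lower past 1.5-fold in all NK cells, 1 and none in Gzmc-led cells, none and 2 in cycling cells, and 1 and 1 in CD8 T cells. In Gzma-led cells 5 were higher and 3 lower, against 1.78% higher and 5.57% lower over all genes, among them Junb at 1828 against 1098 CPM, Nfkbia at 728 against 423 CPM and Jun at 272 against 430 CPM. Nfkbia, the inhibitor of NF-kappa-B, was higher past 1.5-fold in all NK cells, at 398 against 244 CPM, and in CD8 T cells, at 464 against 293 CPM. Across the list the median log2 ratio in Gzma-led cells was 0.04. The part of these genes in the Klf2 difference was not tested.

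Across the 18 sums of subset and library with at least 20 cells, the genes whose log2(CPM + 10) followed Klf2 most closely were Socs1 (Pearson r 0.93), Cxcr4 (0.92) and Smad7 (0.90). Klf2 and Itga1 had r -0.63 and Klf2 and Cd69 0.74. Those closest to Itga1 were Mettl16, Ndufa10 and Ceacam16, at r 0.94 to 0.86, and those closest to Gpr183 were Ostf1, Mrps5 and Avpi1, at 0.94 to 0.83. S1pr1 was closest to Irf1 (0.86), Ccr7 to Jak2 (0.93), Cd69 to Gabbr1 (0.86) and Itgae to Ramp1 (0.90), while S1pr5 had too few UMIs. The sums share libraries and depth, so these values are descriptions.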

How the data were processed

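Raw UMI counts per gene and barcode were deposited by the authors for all barcodes, without a filter to cells. Per the file headers they came from Cell Ranger 4, while the submitters' processing notes name Seurat 3.2.0, Cell Ranger 6.0.0, mm10 and GRCm38, and the labels' protocols name the Chromium 3 prime kit version 3.1. Cells were gated by marker UMIs as described. No doublet caller was run. Barcodes with myeloid, B cell, mature dendritic or tumor RNA above fixed limits were left out instead, while neutrophil, red cell, endothelial and platelet RNA set no limit. Red cell marker RNA reached 580 CPM in normal Gzmc-led NK cells against 1.61 CPM in ketogenic ones, and its part was not tested. NK cells needed at least 2 UMIs of 6 NK genes and at most 1 CD3 UMI, and T cells at least 2 CD3 UMIs. Counts were summed per subset and library with Python 3.11.15, numpy 2.4.6 and scipy 1.17.1. Intervals were exact Poisson, exact binomial (Clopper-Pearson) or exact conditional, at 95%. Thinning drew 1000 UMIs per cell without replacement and left out shallower cells, 55 of the ketogenic and 26 of the normal NK cells. A count of 0 allows up to 3 UMIs. The gates, the 8 genes and the gene lists were chosen with earlier results of these data known. Named genes were the 8 genes in every subset, up to 3 per list and subset past 1.5-fold by UMIs, and the 3 genes most like each of them. Gene positions are from GENCODE on GRCm38 and promoters from RefSeq on GRCm38.p6, which matched 4 of the 8 genes. The code was checked on simulated counts. Alternatives covered the UMI limits, the lineage limits, the gates, the scaling, the pseudocount, free RNA, neutrophil RNA and thinning. Some genes of the lists are not reported here.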

Additional observations from a re-analysis of the deposited data

Results flagged for a closer look

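Ccr7 stood out because its difference between diets ran in opposite directions in different subsets, which was not tested, since each diet had 1 library. The log2 ratio, ketogenic over normal, was 4.13 in Gzma-led NK cells, 1.93 in double-negative cells and 0.64 in CD8 T cells, but -1.92 in CD4 T cells and -2.23 in regulatory T cells. The CD4 and regulatory subsets held 28 and 43 cells in the ketogenic and 24 and 35 in the normal library. In the normal library 27 of the 29 Ccr7 UMIs of regulatory T cells came from 5 cells, and in the ketogenic library 35 of the 49 of double-negative cells came from 5 cells.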

How the results depend on the processing

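The 39 log2 ratios gave 560 alternative values, of which 529 lay inside the counting interval of the reported value and 30 outside it, and 1 turned round a difference past 1.5-fold on the log2(CPM + 10) scale. That one was Ccr7 in Gzma-led NK cells, which gave -0.39 with mixed barcodes kept. Values within 1.5-fold on that scale could change sign too, as Klf2 in double-negative cells did after thinning (-0.15). Ccr7 over all NK cells, 0.83 by its counts, gave -1.03 with mixed barcodes kept, and in Gzmc-led cells, -0.74, it gave 0.66 at 10000 UMIs or fewer. Klf2 in NK cells gave 0.67 with the NK subsets weighted equally, 0.67 as a mean of per-cell CPM and 0.62 at pooled subset weights, an alternative added after seeing the data. Itga1 in NK cells gave -0.83 both after thinning and as a mean of per-cell CPM. Gpr183 in CD8 T cells gave 0.9997 after thinning. With a pseudocount of 1 CPM 4 of the genes passed 1.5-fold in NK cells, and with 20 CPM 1 passed in NK cells and 1 in CD8 T cells, which follows from the pseudocount's pull on low values. Itga1 in cycling NK cells gave -0.35 at 10000 UMIs or fewer, and Klf2 there gave 1.05 after thinning and 1.10 with mixed barcodes kept. The causes of the other shifts were not tested. No paired analysis was possible because each diet had 1 library. Depth limits S1pr1, S1pr5, Itgae and Ccr7 in NK cells, where 12 to 65 UMIs per library stood behind each level.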
